A study of Rattus norvegicus with 12 samples.

Results

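Genes that mark peripheral nerve and Schwann cells were followed in rat hearts after myocardial infarction, with and without Urolithin A. They are the 7 of 30560 genes in the deposited count table whose names are Mbp, Prx, Sox10, S100b, Ngfr, Th and Dbh, and they were chosen by name. RNA came from formalin-fixed, paraffin-embedded sections of the middle region of the heart of 12 male Wistar rats, with 1 library per rat and 4 rats per group. Sham rats had sham surgery and vehicle gavage. MI rats had permanent ligation of the left anterior descending coronary artery and vehicle gavage. MI + UA rats had the same ligation and were gavaged with Urolithin A (UA), a mitophagy inducer. No genetic change is given for any group, and all were operated at 7 weeks of age and were gavaged for 8 weeks. The statements of the study on UA dose and first day of treatment differ, so neither is given. The label of rat 66 puts it in MI + UA, whereas a supplementary table of the study has that number among MI rats on vehicle, so values without it are given where they matter. A section of ligated heart can hold scar, border and remote muscle in unknown shares, and in such bulk tissue fewer cells of a type and less RNA per cell cannot be told apart.

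Schwann cells wrap the axons of peripheral nerves. Those around large axons form myelin, while those around the thin autonomic fibres that make up most of the innervation of the ventricle ensheathe axons without myelin. Sox10 encodes the transcription factor that maintains the Schwann cell lineage, S100b a calcium-binding protein of Schwann cells, and Ngfr the p75 neurotrophin receptor, which Schwann cells raise when they lose contact with axons. Mbp and Prx encode myelin basic protein and periaxin, proteins of the myelin sheath. Th and Dbh encode tyrosine hydroxylase and dopamine beta-hydroxylase, enzymes of noradrenaline synthesis in sympathetic neurons. The cell bodies of these neurons lie mostly outside the heart, in sympathetic ganglia.

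Reads counted on genes numbered between 6228706 and 19031695 per library, and several of the markers had few reads at this depth. Over the 12 libraries Sox10 had 1224 reads, Prx 621, Mbp 226, S100b 200, Ngfr 178, Dbh 107 and Th 1. Values are given as reads counted and as CPM (counts per 1000000 reads, with library sizes adjusted by TMM). Levels are compared between rats for one gene and never between genes, since CPM takes no account of gene length. Of the 7, 6 had at least 10 reads in total and were tested with edgeR's quasi-likelihood test beside all other genes. Of 18182 genes tested, 11.4% had an adjusted p-value under 0.05 in MI versus Sham (5.82% higher and 5.53% lower), 0% in MI + UA versus MI, and 9.44% in MI + UA versus Sham (5.16% higher and 4.27% lower). The tissue label was matched by the cardiomyocyte list, whose 7 measured genes summed to between 10371 and 17733 CPM in every library.

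Among the markers, 0 of 6 passed the threshold in MI versus Sham, 0 of 6 in MI + UA versus MI, and 2 of 6, Sox10 and S100b, in MI + UA versus Sham, both higher. Without adjustment, p was under 0.05 for 2 of 6 in MI versus Sham (S100b and Dbh, against 23.9% of all genes), 1 of 6 in MI + UA versus MI (Sox10, against 3.79%) and 2 of 6 in MI + UA versus Sham (against 21.8%). DESeq2 called S100b in MI versus Sham and 0 markers in MI + UA versus MI. The 3 comparisons share rats and are not independent of each other. Groups did not overlap at 2 of 6 markers in MI versus Sham (Sox10 and S100b, against 15.7% of all genes), at 0 of 6 in MI + UA versus MI (against 2.34%) and at 1 of 6 in MI + UA versus Sham (Sox10, against 14.3%).

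**Figure D1:**
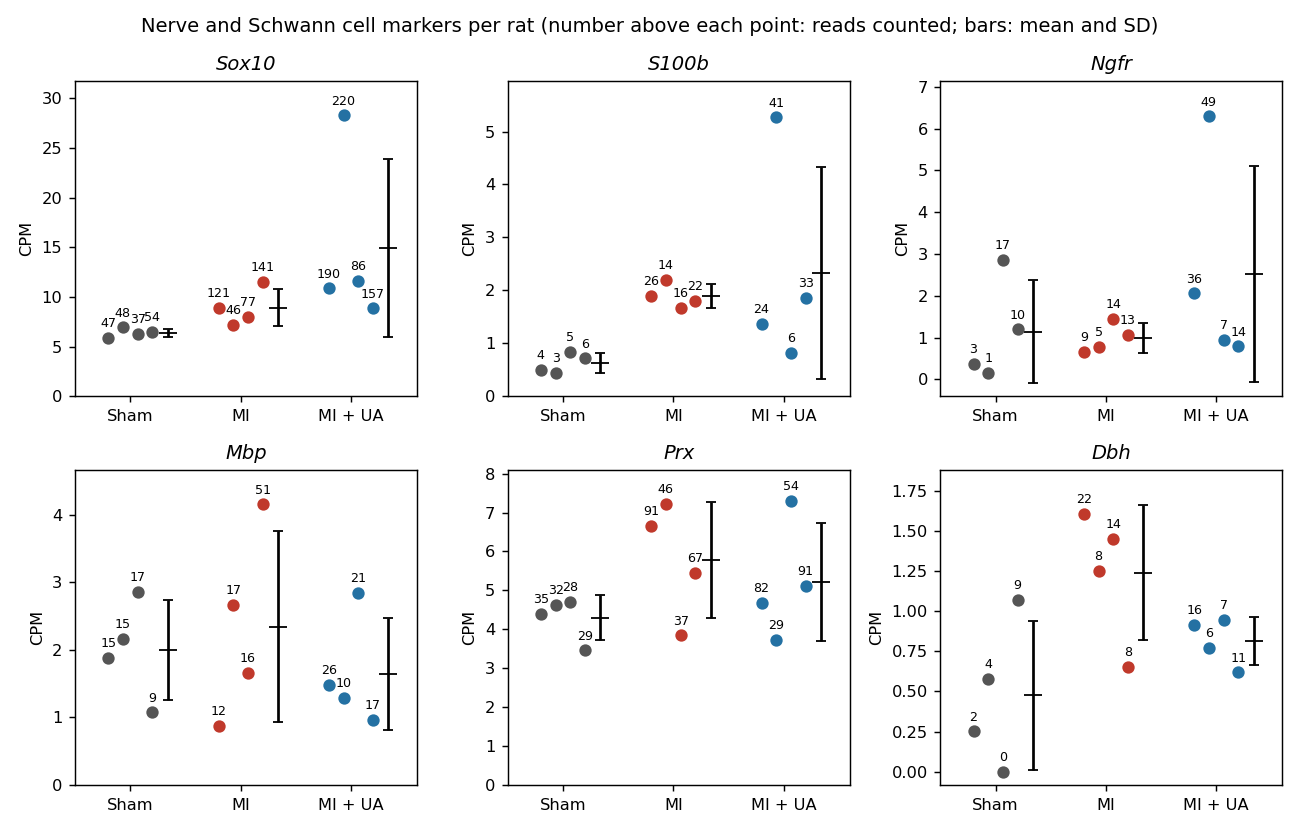
CPM of 6 markers in each of the 12 rats, on linear axes, by group; the number above a point is the reads counted, and the bars show the mean and SD of 4 rats. Rat 58 of MI + UA is the highest point for Sox10, S100b and Ngfr but not for Mbp, Prx or Dbh. Th is not drawn, since it had 1 read in all.

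Sox10 (ENSRNOG00000011305) had group means in the order Sham, MI, MI + UA, and was higher in MI + UA than in Sham, while neighbours in that order did not pass the test. Reads counted were 47, 48, 37 and 54 in Sham rats 12, 17, 32 and 38, or 5.90, 6.93, 6.23 and 6.44 CPM. In MI rats 36, 57, 61 and 89 they were 121, 46, 77 and 141, or 8.85, 7.21, 7.99 and 11.5 CPM. MI + UA rats 29, 58, 64 and 66 had 190, 220, 86 and 157 reads, or 10.9, 28.3, 11.6 and 8.83 CPM. Every MI rat and every MI + UA rat lay above every Sham rat, while MI + UA overlapped MI. Group means were 6.37 ± 0.432, 8.88 ± 1.86 and 14.9 ± 8.98 CPM (SD, n = 4 each). Without rat 58 the other 3 MI + UA rats were at 10.4 ± 1.45 CPM (SD, n = 3).

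In MI versus Sham the log2 fold change of Sox10 was 0.50 (standard error 0.29, edgeR adjusted p = 0.326). A two-sided exact permutation test gave p = 0.0286, which is the lower limit of this test with 4 rats in each group. After Benjamini-Hochberg adjustment over the permutation tests of all markers and comparisons, this p-value was 0.2. In MI + UA versus Sham the log2 fold change was 1.18 (standard error 0.28, 95% interval 0.59 to 1.77, edgeR adjusted p = 0.0103). There the exact permutation p was 0.0286, or 0.2 after the same adjustment. The edgeR call in MI + UA versus Sham held in all 8 edgeR fits that each left out 1 rat. Without rat 58 the log2 fold change was 0.70 (edgeR adjusted p = 0.0174), and without rat 66 it was 1.38 (edgeR adjusted p = 0.00164). In MI + UA versus MI it was 0.68 (95% interval 0.13 to 1.23, unadjusted p = 0.0173, edgeR adjusted p = 0.9997), and 0.20 without rat 58. Without rat 66 it was 0.88 (edgeR unadjusted p = 0.00210), which did not pass after adjustment.

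S100b (ENSRNOG00000001295) had few reads in Sham, and its fitted level in MI was 2.99 times that in Sham, short of the threshold. Sham rats 12, 17, 32 and 38 had 4, 3, 5 and 6 reads, or 0.502, 0.433, 0.842 and 0.715 CPM. In MI rats 36, 57, 61 and 89 there were 26, 14, 16 and 22 reads, or 1.90, 2.20, 1.66 and 1.79 CPM. All 4 MI rats lay above all Sham rats and close together. MI + UA rats 29, 58, 64 and 66 had 24, 41, 6 and 33 reads, or 1.37, 5.27, 0.812 and 1.86 CPM. They spread more widely than either other group, with rat 64 inside the Sham range and rat 58 above every other rat. Mean levels were 0.623 ± 0.189 in Sham, 1.89 ± 0.228 in MI and 2.33 ± 2.01 CPM in MI + UA (SD, n = 4 each).

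The log2 fold change of S100b in MI versus Sham was 1.58 (standard error 0.51, 95% interval 0.51 to 2.65, edgeR adjusted p = 0.0513). The exact permutation p was 0.0286, or 0.2 after adjustment over the permutation tests of all markers and comparisons. This log2 fold change passed with DESeq2 (adjusted p = 0.0295), when genes with at least 1 read were kept (edgeR adjusted p = 0.0237) and in a fit of the 2 groups alone (edgeR adjusted p = 0.00984). It did not pass with edgeR's filterByExpr (adjusted p = 0.0509) and was called in 0 of 8 fits when single Sham or MI rats were left out (edgeR adjusted p between 0.0773 and 0.126). In MI + UA versus Sham it was 1.83 (standard error 0.50, edgeR adjusted p = 0.0237), with overlapping groups and an exact permutation p of 0.0571. This call was lost without rat 58, where the log2 fold change was 1.18 (edgeR adjusted p = 0.0879), and also without Sham rat 12, 17 or 38 (edgeR adjusted p between 0.0579 and 0.0718). Between MI + UA and MI the difference was 0.25 (95% interval -0.59 to 1.09, edgeR adjusted p = 0.9997), and it turned to -0.40 without rat 58. RefSeq places the span of S100b, from start to end of the gene, in overlap with that of Dip2a. Whether their exons overlap was not examined, and the strand setting of the counting is not given in the sources used here. Whether the overlap affected the reads counted for S100b is therefore not known. Dip2a had a log2 fold change of 0.27 in MI versus Sham (edgeR adjusted p = 0.132) and 0.18 in MI + UA versus Sham (edgeR adjusted p = 0.364).

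The promoter window of S100b is shown because S100b is the marker past the threshold for which the RefSeq promoter table holds an entry; that of Prx, a myelin gene that did not pass it, stands beside it. Each runs 5′ to 3′ on the gene's strand from 250 bases before the annotated start to 50 after it, in the GRCr8 build (chr20:12381032-12381331, minus strand, for S100b, and chr1:91914171-91914470, plus strand, for Prx).
S100b: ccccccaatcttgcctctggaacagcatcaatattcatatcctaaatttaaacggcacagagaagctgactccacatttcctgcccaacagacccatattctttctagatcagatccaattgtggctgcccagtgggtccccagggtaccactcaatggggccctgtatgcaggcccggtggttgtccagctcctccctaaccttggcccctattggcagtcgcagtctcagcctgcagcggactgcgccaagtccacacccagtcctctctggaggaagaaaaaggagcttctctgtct
Prx: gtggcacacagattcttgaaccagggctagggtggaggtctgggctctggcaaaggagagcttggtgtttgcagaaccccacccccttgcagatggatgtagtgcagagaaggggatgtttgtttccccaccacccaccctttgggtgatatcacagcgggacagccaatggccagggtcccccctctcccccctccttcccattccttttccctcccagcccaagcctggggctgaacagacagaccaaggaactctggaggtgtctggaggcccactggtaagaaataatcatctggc
SOX proteins bind a short core, searched here as ACAAAG and ACAATG on both strands, and a match would stand in capitals. Neither window holds one. Of the 5 markers with an entry (Mbp, Prx, S100b, Th and Dbh), only Mbp had matches, 3 of them in the second of its 2 windows, starting at bases 11, 54 and 89. At least 1 match occurs in 29.1% of all 33469 windows of this length, ACAAAG in 18.8% and ACAATG in 13.2%. A match or its absence describes these letters only.

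Ngfr (ENSRNOG00000005392) overlapped between all 3 groups. Sham rats 12, 17, 32 and 38 had 3, 1, 17 and 10 reads, or 0.376, 0.144, 2.86 and 1.19 CPM. MI rats 36, 57, 61 and 89 had 9, 5, 14 and 13 reads, or 0.658, 0.784, 1.45 and 1.06 CPM. In MI + UA rats 29, 58, 64 and 66 there were 36, 49, 7 and 14 reads, or 2.06, 6.29, 0.947 and 0.788 CPM. Sham rat 32 exceeded all 4 MI rats, and rat 58 exceeded every other rat. The log2 fold change was -0.14 in MI versus Sham (standard error 0.72, 95% interval -1.64 to 1.36, edgeR adjusted p = 0.940), and 0.72 without Sham rat 32. It was 1.26 in MI + UA versus MI (95% interval -0.04 to 2.55, unadjusted p = 0.0559) and 1.12 in MI + UA versus Sham (edgeR adjusted p = 0.337). Without rat 58 these values fell to 0.40 and 0.25. Without rat 66 they rose to 1.61 (edgeR unadjusted p = 0.0138) and 1.47 (edgeR adjusted p = 0.154), and neither passed after adjustment. Without Sham rat 32 the value in MI + UA versus Sham was 1.98.

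**Figure D2:**
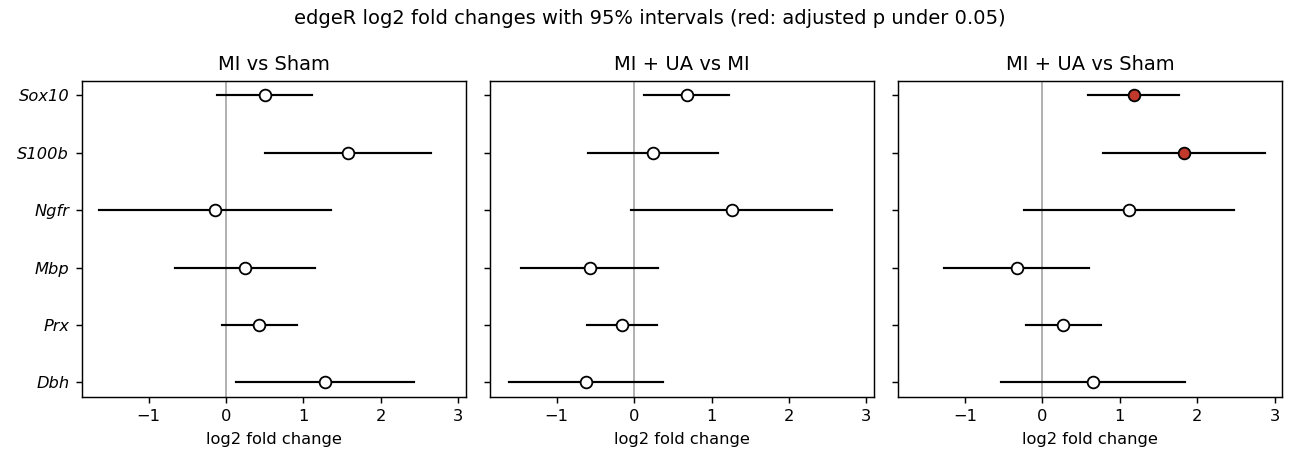
Log2 fold changes of 6 markers in 3 comparisons, with 95% intervals of edgeR's quasi-likelihood fit; filled points have an adjusted p-value under 0.05. The filled points are Sox10 (1.18) and S100b (1.83) in MI + UA versus Sham, and intervals are widest for Ngfr.

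The 2 myelin proteins among the markers did not pass the test in any comparison. Mbp (ENSRNOG00000016516) had 15, 15, 17 and 9 reads in Sham rats 12, 17, 32 and 38, which is 1.88, 2.16, 2.86 and 1.07 CPM. MI rats 36, 57, 61 and 89 had 12, 17, 16 and 51 reads, or 0.877, 2.67, 1.66 and 4.16 CPM. MI + UA rats 29, 58, 64 and 66 had 26, 10, 21 and 17 reads, or 1.49, 1.28, 2.84 and 0.957 CPM. The 3 groups overlapped throughout, with the highest value in MI rat 89 and the lowest in MI rat 36. The log2 fold change of Mbp was 0.25 in MI versus Sham (95% interval -0.66 to 1.15, edgeR adjusted p = 0.799) and changed sign to -0.27 without rat 89. It was -0.58 in MI + UA versus MI (95% interval -1.46 to 0.30) and -0.33 in MI + UA versus Sham (95% interval -1.27 to 0.61). Without rat 66 these values were -0.35 and -0.11. Over the fits that each left out 1 rat they ran from -0.90 to -0.06, nearest 0 without MI rat 89, and from -0.65, without rat 64, to -0.11.

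Prx (ENSRNOG00000018369) was counted at 35, 32, 28 and 29 reads in Sham rats 12, 17, 32 and 38, or 4.39, 4.62, 4.71 and 3.46 CPM. MI rats 36, 57, 61 and 89 had 91, 46, 37 and 67 reads, or 6.65, 7.21, 3.84 and 5.46 CPM. In MI + UA rats 29, 58, 64 and 66 there were 82, 29, 54 and 91 reads, or 4.69, 3.72, 7.31 and 5.12 CPM. Of the 4 MI rats, 3 lay above all Sham rats and MI rat 61 lay among them. Log2 fold changes were 0.43 in MI versus Sham (95% interval -0.05 to 0.91, edgeR adjusted p = 0.274), -0.16 in MI + UA versus MI (95% interval -0.61 to 0.29) and 0.27 in MI + UA versus Sham (95% interval -0.21 to 0.75). Over the fits without 1 rat they ran from 0.33 to 0.58, from -0.33 to -0.05 and from 0.10 to 0.38, and the last 2 ranges had rats 64 and 58 at their ends. RefSeq places Mbp in overlap with LOC108348833, a long non-coding RNA, and Prx with the pseudogene Tmem258-ps4, so the limit given for S100b applies to both. Both myelin genes were, in rat 58, below the mean of the other 3 MI + UA rats. Periaxin is also made by endothelial cells of some vessels. The endothelial list, with 1 of 6 tested genes lower and 0 higher in MI versus Sham, summed to between 574 and 645 CPM in Sham and between 469 and 551 CPM in MI, and its part in the Prx values was not tested.

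Th (ENSRNOG00000020410) was at the limit of detection. A single read was counted in 12 libraries, in MI rat 89 (0.0815 CPM). With 0 reads over the 4 Sham rats, a count of 0 allows a level of up to 0.103 CPM over the group, and over the 4 MI + UA rats up to 0.0595 CPM (3 reads over the group, counting error only). No difference in Th was detectable at this depth.

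Dbh (ENSRNOG00000006641), which acts later in the same pathway, was counted in 11 of 12 rats. Sham rats 12, 17, 32 and 38 had 2, 4, 0 and 9 reads, or 0.251, 0.577, 0 and 1.07 CPM, where 0 reads in rat 32 allow up to 0.505 CPM. MI rats 36, 57, 61 and 89 had 22, 8, 14 and 8 reads, or 1.61, 1.25, 1.45 and 0.652 CPM. MI + UA rats 29, 58, 64 and 66 had 16, 6, 7 and 11 reads, or 0.914, 0.771, 0.947 and 0.619 CPM. Of the 4 MI rats, 3 lay above every Sham rat and every MI + UA rat, and MI rat 89 did not. The log2 fold change was 1.28 in MI versus Sham (95% interval 0.13 to 2.43, unadjusted p = 0.0304, edgeR adjusted p = 0.153, exact permutation p = 0.0571). It was -0.62 in MI + UA versus MI (95% interval -1.62 to 0.38) and 0.66 in MI + UA versus Sham (95% interval -0.53 to 1.85). Without Sham rat 38 the first value was 2.07 (edgeR adjusted p = 0.0508) and the third 1.45, and over the fits without 1 rat they ran from 0.94 to 2.07 and from 0.32, without Sham rat 32, to 1.45. In rat 58, where the Schwann identity markers were highest, Dbh was close to the other MI + UA rats.

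Other genes of nerve were read from lists of Schwann cell, neuronal and neurotrophic genes, 100 symbols besides the markers. Of these 97 were in the table, 68 were tested and 18 passed the threshold in at least 1 comparison, 0 of them in MI + UA versus MI. Of all genes tested, 13.3% passed in at least 1 comparison. Drp2, Slc18a3 and Gfra1 were not found by symbol. Over all genes tested the median log2 fold change was 0.026 in MI versus Sham, 0.0047 in MI + UA versus MI and 0.023 in MI + UA versus Sham.

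Of 13 tested genes of myelinating Schwann cells, 4 were higher and 1 lower in MI versus Sham (against 5.82% and 5.53% of all genes), with a median log2 fold change of 0.70. Pmp22, Cnp and Gldn were among those higher, and Pllp was the one lower. Pmp22, a myelin membrane protein that fibroblasts also make, went from 38.9 ± 2.95 to 72.7 ± 11.9 CPM (log2 fold change 0.90, edgeR adjusted p = 0.000166) and kept its call in 8 of the 8 fits that left out 1 rat. Cnp, an enzyme of myelinating glia, rose by 0.79 in log2 terms and Gldn, gliomedin of the node of Ranvier, by 1.02 (edgeR adjusted p = 0.00822 and 0.0156); the Gldn call was lost without MI rat 61 (edgeR adjusted p = 0.0624). Pllp, plasmolipin, was lower at a log2 fold change of -0.68 (edgeR adjusted p = 0.0228), without overlap, a call lost without Sham rat 17 or MI rat 61 (edgeR adjusted p = 0.0972 and 0.0840). In MI + UA versus Sham 3 of the 13 were higher (Pmp22 and Cnp among them) and 0 lower, against 5.16% and 4.27% of all genes. Without rat 58 that count was 1, Pmp22. The Cnp call was also lost without Sham rat 12 or 17 or MI + UA rat 29 or 64 (edgeR adjusted p between 0.0513 and 0.112). Mag (4 reads), Gjb1 (1 read) and Ncmap (0 reads), also genes of compact or paranodal myelin, were too low to test.

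Genes of non-myelinating and immature Schwann cells moved in 1 direction where they passed. Of 13 tested, 2 were higher and 0 lower in MI versus Sham, against 5.82% and 5.53% of all genes (median log2 fold change 0.78). In MI + UA versus Sham 6 were higher and 0 lower, against 5.16% and 4.27% of all genes (median 1.17). Without rat 58 the second count was 3 and the median 0.65. Ncam1, a cell adhesion molecule that cardiomyocytes can also make, passed in both, at 38.8 ± 6.62 CPM in Sham, 75.5 ± 14.5 in MI and 87.6 ± 12.3 in MI + UA (SD, n = 4 each). Its log2 fold changes were 0.95 and 1.18 (edgeR adjusted p = 0.000117 and 1.53e-05), and rat 58 was the lowest of the 4 MI + UA rats for it. Cdh19, a cadherin of Schwann cell precursors, and L1cam, an adhesion molecule of axons and unmyelinated Schwann cells, passed in MI + UA versus Sham. In MI versus Sham they had log2 fold changes of 0.80 and 0.63 (edgeR adjusted p = 0.208 and 0.253), and the difference between the comparisons was not tested. Their log2 fold changes in MI + UA versus Sham were 1.47 and 1.17 (edgeR adjusted p = 0.0135 and 0.0221), and 0.91 and 0.58 without rat 58 (edgeR adjusted p = 0.0431 and 0.0446). The Cdh19 call was lost without Sham rat 38 (edgeR adjusted p = 0.0504), and that of L1cam without Sham rat 17, 32 or 38 (edgeR adjusted p between 0.0605 and 0.0651). Gfap, an intermediate filament of non-myelinating Schwann cells, was counted at 1 to 25 reads per rat and rose by 1.80 (edgeR adjusted p = 0.0394), a call lost without rat 58 (edgeR adjusted p = 0.127) and also without Sham rat 12, 17 or 32 or MI + UA rat 66 (edgeR adjusted p between 0.0558 and 0.111). Scn7a, a sodium channel, was at 73.9 ± 5.07 CPM in Sham, 76.0 ± 12.2 in MI and 156 ± 135 in MI + UA. Its log2 fold change of 1.07 in MI + UA versus Sham (edgeR adjusted p = 0.0421) fell to 0.26 without rat 58 (edgeR adjusted p = 0.196), and DESeq2 did not call it (adjusted p = 0.106). Leaving out any 1 Sham rat also lost the Scn7a call (edgeR adjusted p between 0.0784 and 0.113).

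**Figure D3:**
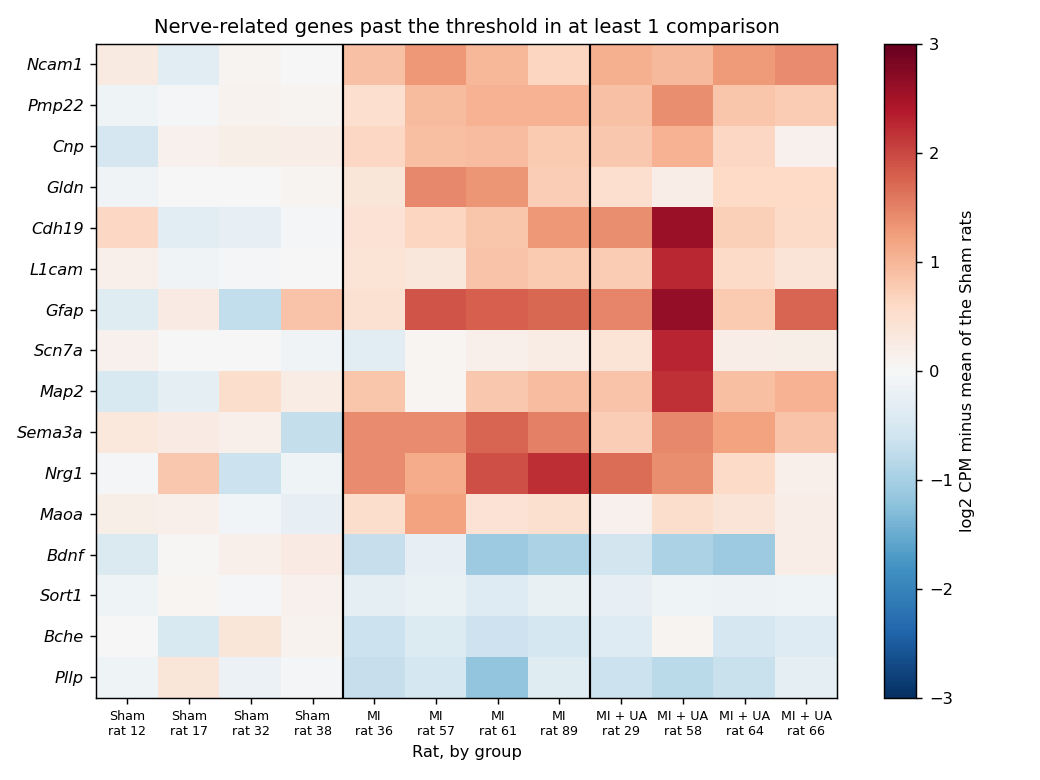
Log2 CPM minus the mean of the 4 Sham rats, in each of 12 rats, for 16 of the nerve-related genes past the threshold in at least 1 comparison; red is higher than Sham and blue lower. Ncam1 and Pmp22 are raised across all 8 ligated rats, while Scn7a, L1cam and Cdh19 are darkest in rat 58.

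Catecholamine genes gave 1 call among 13 tested in MI versus Sham, where 11.4% of all genes passed, and 0 in the other comparisons. That gene was Maoa, monoamine oxidase A, which cardiomyocytes also make, at 240 to 319 CPM in Sham and 379 to 653 in MI (log2 fold change 0.68, edgeR adjusted p = 0.00294). Isl1, a transcription factor of sympathetic neurons, had 0 reads in every library and Phox2a, another, had 8. Of 10 tested genes of neurons and axons, 0 passed in MI versus Sham (against 11.4% of all genes), with a median log2 fold change of 0.94. There 4 had an unadjusted p under 0.05 (against 23.9% of all genes). In MI + UA versus Sham 1 passed, near the share of 9.44% over all genes, so the count says nothing particular of this list. It was the microtubule protein gene Map2 (log2 fold change 1.35, edgeR adjusted p = 0.0320). Without rat 58 the Map2 value was 0.96 (edgeR adjusted p = 0.124), and the call was also lost without Sham rat 12, 17 or 38 (edgeR adjusted p between 0.0646 and 0.0961). Nefm and Elavl3 had 0 reads. Of 3 tested cholinergic and sensory genes, 1 was lower in MI versus Sham, against 5.53% of all genes, and 0 were higher, against 5.82%. The lower gene was Bche, butyrylcholinesterase, with a log2 fold change of -0.59 (edgeR adjusted p = 0.0102, and 0.0552 without Sham rat 32). Chat, Sst, Calcb and Tac1 had 0 reads. The sum over the 18 neuronal and axonal genes was 5.34 to 7.24 CPM in Sham, 8.51 to 10.2 in MI and 8.00 to 12.2 in MI + UA.

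Of 19 tested genes of neurotrophic and guidance signals, 2 were higher and 2 lower in MI versus Sham, near the shares over all genes (5.82% and 5.53%), so the counts say nothing particular of this list. Sema3a encodes a secreted repellent of sympathetic axons. It went from 1.43 to 3.01 CPM in Sham rats to 6.59 to 8.30 in MI rats, 1.53 higher on the log2 scale (standard error 0.23; adjusted p = 0.000191 by edgeR), and was also higher in MI + UA versus Sham (log2 fold change 1.03, edgeR adjusted p = 0.00764). Nrg1, neuregulin, a ligand of the Schwann cell receptor encoded by Erbb3, rose by 1.66 in MI versus Sham (standard error 0.32, edgeR adjusted p = 0.00158). In MI + UA versus MI, Sema3a and Nrg1 had log2 fold changes of -0.49 and -0.67 with unadjusted p-values of 0.0241 and 0.0267 and an edgeR adjusted p = 0.9997 for both. The MI rats enter both comparisons. Bdnf, a neurotrophin, and Sort1, sortilin, a partner of the p75 receptor, were lower in MI versus Sham with log2 fold changes of -0.75 and -0.28 (edgeR adjusted p = 0.0354 and 0.0312), each called in 2 of 8 fits that left out 1 rat, those without Sham rat 12 or MI rat 57. DESeq2 did not call Bdnf (adjusted p = 0.0898).

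Rat 58 stood apart in genes of non-myelinating Schwann cells. It had the highest CPM of the 12 rats at 11.3% of all genes tested, at 3 of the 6 tested markers (Sox10, S100b and Ngfr), at 11 of 13 genes of the non-myelinating and immature Schwann list, at 4 of 13 of the myelinating list, at 2 of 10 neuronal and at 0 of 13 catecholamine genes. Against the mean of the other 3 MI + UA rats it was 2.71 times higher for Sox10, 3.91 times for S100b, 4.98 times for Ngfr and 4.04 times for Scn7a, while the ratio was 0.729 for Mbp, 0.653 for Prx and 0.932 for Dbh. Genes named here after their values were seen are Erbb3, Gfra3, Foxd3 and Sema3b. In rat 58 Erbb3 was at 13.5 CPM against at most 6.36 in the other 11 rats, and Gfra3 at 14.1 against 6.19. Foxd3, with 17 reads in rat 58, was at 2.18 against 0.623. Erbb3, Gfra3 and Foxd3 encode a neuregulin receptor, a receptor for artemin and a neural crest transcription factor. Ncam1 and Sema3b of the non-myelinating and immature Schwann list went the other way, with ratios of 0.814 and 0.396. Sema3b had 3 reads in rat 58. The library of rat 58 also had the lowest share of counted reads on genes, 42.9%, where the other 11 rats had 43.3% to 48.3%. For lists of other cell types the median ratio of rat 58 to the 3 MI + UA rats was 0.875 for cardiomyocyte genes, 1.21 for fibroblast genes, 1.03 for macrophage genes, 0.890 for endothelial genes and 1.04 for mural genes, with adipocyte genes between the macrophage and fibroblast values. Rat 58 was the highest of the 12 rats at 3 of 8 fibroblast genes, the collagen genes Col1a1, Col1a2 and Col3a1 (ratios 1.64, 1.44 and 1.31), at 1 adipocyte gene, Cfd, and at 0 of the cardiomyocyte, macrophage, endothelial, mural and melanocyte genes. The median ratio was 1.18 for 4 tested melanocyte genes, while the defining Tyr, not tested, was at 0 in every library. The median ratio was 2.59 for 6 lymphocyte genes and 2.08 for 5 mesothelial genes, and rat 58 was the highest of the 12 rats for 1 gene of each list, Cd3e and Msln. Both lists were low, with sums over the 4 MI + UA rats of 2.08 to 5.52 CPM for lymphocyte and 11.9 to 14.3 CPM for mesothelial genes. Rat 58 had the highest of the 4 lymphocyte sums but the lowest of the 4 mesothelial sums, with the mesothelial gene Wt1 at a ratio of 0.694. How these values bear on the Schwann cell genes was not tested.

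**Figure D4:**
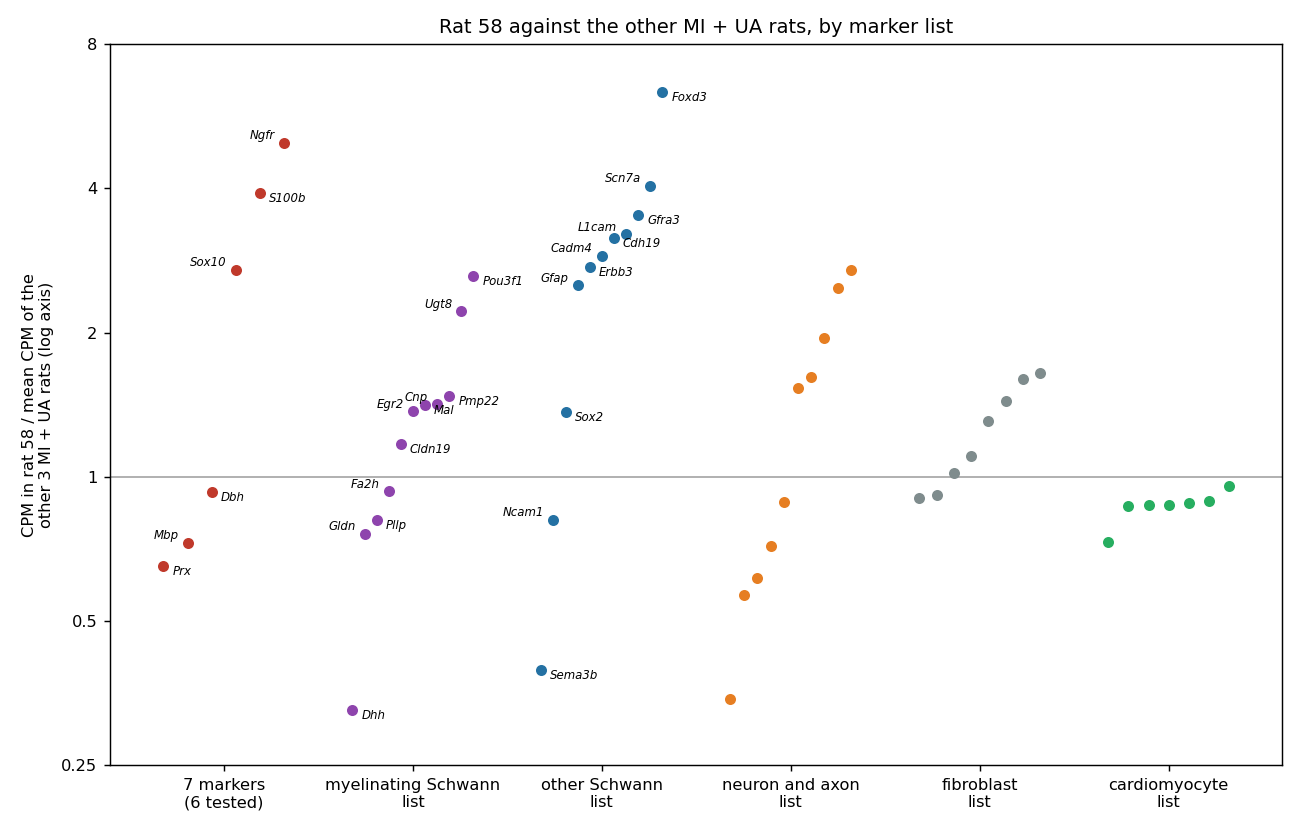
CPM in rat 58 divided by the mean CPM of the other 3 MI + UA rats, on a log axis, for tested genes of 6 lists. Sox10, S100b and Ngfr (2.71, 3.91 and 4.98) and most of the non-myelinating and immature Schwann list lie above 2, while Mbp, Prx, Dbh and all 7 cardiomyocyte genes lie below 1.

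Marker lists of other heart cells were read in the same comparisons, where 5.82% of all genes were higher and 5.53% lower in MI versus Sham, and 5.16% and 4.27% in MI + UA versus Sham. In MI versus Sham, 6 of 8 fibroblast genes and 5 of 6 macrophage genes were higher and 6 of 7 cardiomyocyte genes lower, and the counts of these 3 lists in MI + UA versus Sham were equal to those. Fibroblast sums ran from 1127 to 1439 CPM in Sham, 2188 to 3574 in MI and 2205 to 3685 in MI + UA. Macrophage sums ran from 71.6 to 85.1, 130 to 170 and 118 to 183 CPM, and cardiomyocyte sums from 14482 to 17733, 10371 to 11126 and 10814 to 13115 CPM. Of 7 mural genes, 4 were higher and 0 lower in MI versus Sham (median log2 fold change 0.56), and 1 was higher and 1 lower in MI + UA versus Sham (median 0.35). Mural sums ran from 517 to 540 CPM in Sham, 515 to 651 in MI and 514 to 619 in MI + UA. In MI versus Sham 2 of 6 adipocyte, 1 of 6 endothelial and 2 of 4 melanocyte genes were lower, and in MI + UA versus Sham 2, 1 and 1, with 0 higher. Of 6 lymphocyte and 5 mesothelial genes 0 passed in any comparison, where unadjusted p was under 0.05 for 1 of each in MI versus Sham and 0 in the others. No defining gene of the fibroblast, macrophage and cardiomyocyte lists was at 0, and Pln was not found by symbol. The part of these differences in the Schwann cell values was not tested. Between MI + UA and MI, 0 genes of these 9 lists passed.

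The genes whose variation among rats was most like that of a marker were read after subtracting group means, over 12 rats and 10927 genes. For Sox10 they were Igsf11 (Pearson r = 0.963), Itgb4 (0.951) and Ctxnd1 (0.943), with r = 0.903, 0.860 and 0.833 over the 11 rats without rat 58. For S100b they were Trim2, G3bp2 and Sf3b1 (r = 0.936, 0.931 and 0.931), and for Ngfr AABR07017902.1, Vgll3 and Capza1 (0.924, 0.922 and 0.911). Mbp was nearest to Hsd3b7, Tram1 and Arfip2 (0.924, 0.897 and 0.891) and Prx to Zbtb49, Fbrsl1 and Tfdp2 (0.897, 0.875 and 0.875). None of the 15 was shared by 2 markers. The points share library, depth and scaling, the highest of 10927 correlations is high by selection, and the low counts of 4 of these 5 markers add noise, so the lists are a description.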

How the data were processed

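The authors extracted RNA from 20 µm sections, depleted ribosomal RNA (the labels name the molecule polyA RNA), mapped read pairs to mRatBN7.2 with STAR 2.6.1c and deposited raw counts per Ensembl gene from htseq-count. The values are counts, unnormalized, with 1 library per rat; 5 summary rows, such as reads on no gene, were left out of library sizes and tests (reads on genes were 42.9% to 48.3% of the table's total per library). The 13 mitochondrially encoded genes took 50.2% to 58.6% of the reads on genes. The study describes a further MI + UA library, which was not analysed here. The study states that it excluded an MI + UA library as an outlier seen by principal component analysis.

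A minimum of 10 counts over all libraries was set, and genes were fitted with edgeR 4.0.16 (R 4.3.3; TMM, quasi-likelihood, 3 groups in 1 fit) and p-values were Benjamini-Hochberg adjusted over all 18182 genes, with a threshold of 0.05. The standard error is the absolute log2 fold change over the square root of F, and intervals use the fit's degrees of freedom. Two-sided exact permutation tests used log2 CPM with a prior count of 1. Their p-values are printed unadjusted unless stated. After Benjamini-Hochberg adjustment over all markers and comparisons the lowest was 0.2, so none passed the threshold. DESeq2 1.42.0, other scalings and filters, a fit of 2 groups and fits leaving out each rat were alternatives. The fit was tested on simulated data. The edgeR p-values set a group difference against variation between rats, estimated over the 3 groups with information shared between genes. Labels and methods give no sequencing batch.

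Members and lists were chosen with earlier results of these data known. Named were all markers, listed genes past the threshold in at least 1 comparison (at most 25), and for markers with at least 120 counts the 3 genes most like each, among genes with a symbol and an average log2 CPM of at least 1. Promoters are RefSeq windows of 300 bases in GRCr8. A few listed genes enter the counts but are not reported here by name.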

Additional observations from a re-analysis of the deposited data

Results flagged for a closer look

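In groups of 4 rats, the highest or lowest value was set against the rest by Dixon's criterion at the 95% level, for the tested markers and the 18 named genes. Of 72 groups examined 8 were flagged. Chance flags about 1 in 20 groups whose genes were not chosen by their values, a rate that does not hold here, since the 18 genes were named for passing the threshold in these rats, and Scn7a and Map2 did not pass without rat 58 (edgeR adjusted p = 0.196 and 0.124). In 5 of them the rat was MI + UA rat 58: Sox10 at 28.3 CPM (8.83 to 11.6 in the other 3), Pmp22 at 102.0 (66.1 to 71.4), L1cam at 29.03 (7.88 to 10.2), Map2 at 4.50 (1.71 to 1.97) and Scn7a at 358 CPM (83.4 to 97.4). The groups are also not independent, since genes were examined in the same rats. MI rat 57 was high for Maoa at 653 CPM (379 to 409 in the other 3 MI rats) and low for Map2 at 0.941 CPM (1.66 to 1.79), where it had 6 reads. Sham rat 12 was low for Cnp at 5.39 CPM (8.52 to 8.82).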

How the results depend on the processing

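No paired analysis was possible because each rat belongs to a single group and no rat number recurs between groups. Among alternative values of the markers' log2 fold changes, 244 kept their direction and their side of the threshold, 4 turned sign, 3 gained a call and 4 lost one. S100b in MI versus Sham passed the threshold with DESeq2 (1.60), with genes of at least 1 count (1.58) and with 2 groups alone (1.56). Leaving out 1 rat moved S100b in MI + UA versus Sham between 1.18 and 2.06, with 4 of 8 calls lost, and S100b in MI + UA versus MI between -0.40 and 0.48, Mbp in MI versus Sham between -0.27 and 0.56 and Ngfr in MI versus Sham between -0.50 and 0.72. Signs turned without rat 58 for S100b (-0.40), without MI rat 89 for Mbp (-0.27), and without Sham rat 32 (0.72) or MI rat 36 (0.046) for Ngfr. In the permutation test the difference of mean log2 CPM was -0.03 for S100b in MI + UA versus MI and 0.36 for Ngfr in MI versus Sham, where linear CPM gave 0.439 and -0.155; edgeR's log2 fold changes (0.25 and -0.14) had the signs of linear CPM. The cause was not tested. Genes called in MI + UA versus MI numbered 3 with genes of at least 1 count and between 0 and 1 when 1 rat was left out. Without rat 58, a choice made after seeing the data, calls in MI + UA versus Sham numbered 1 of the myelinating list, 3 of the non-myelinating list and 0 of the neuronal list. Under edgeR's filterByExpr Dbh was not kept and has no value. With 3 to 41 reads per rat for S100b, depth limits what can be seen of the low markers.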
